A study of Homo sapiens with 29 samples.

Results

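The filament genes of PC9 lung cancer cells were chosen by symbol, as the protein-coding genes named KRT with a number, VIM, NES, LMNA, LMNB1, LMNB2 and the TUBA, TUBB and TUBG tubulins. The rule found 81 genes of the 35579 with a matched transcript, made up of 55 keratins, 21 tubulins, 3 lamins, VIM and NES. Of them, 36 had a mean of at least 1 TPM (transcripts per 1000000 transcripts, a unit scaled by transcript length) over the libraries and are described here, beside 14111 genes in all at that level. They were 18 keratins, 13 tubulins, the 3 lamins, VIM and NES. The threshold fell between KRT14 at 1.05 TPM and KRT83 at 0.690 TPM. Of the 45 genes below it, 42 had a mean under 0.5 TPM and 5 were listed at 0 TPM in every library.

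Keratins, lamins, vimentin, nestin and tubulins are the filament proteins of the epithelial cell and its nucleus. Keratins assemble only as pairs of a type I and a type II protein, and KRT8 with KRT18 is the pair that simple epithelia make first, joined by KRT7 and KRT19 in ducts and airways. KRT5 and KRT14 mark basal cells, KRT6, KRT16 and KRT17 are made by stressed or wounded epithelium, and VIM is the filament protein of mesenchymal cells. Microtubules are polymers of alpha- and beta-tubulin that start from rings of gamma-tubulin. Lamins line the inner nuclear membrane, where A-type and B-type lamins form separate networks.

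The cells were PC9, which was derived from a lung adenocarcinoma with a mutant EGFR. Of its 10 lines, 1 was unmodified (PAR), 1 had AXL knocked out by CRISPR-Cas9 (KO), and 8 were made from KO by lentiviral transduction and sorting, which gives populations rather than clones. The transduced receptor was wild-type (WT), kinase-dead (KD), or changed at 1 tyrosine to phenylalanine (Y634F, Y643F, Y698F, Y726F, Y750F and Y821F). All 9 lines other than PAR therefore share the knockout background, and are called derived lines. Dishes seeded with 300000 cells were left untreated (UT) or kept for 24 h with erlotinib, an inhibitor of the EGFR kinase (E), or with erlotinib and AF154, an antibody that activates AXL (EA). There was 1 library per line and treatment, 29 in all, with 10 UT, 10 E and 9 EA. The combination of KO and EA was not analysed here. The lines stand as replicates of a treatment although they carry different receptors, so a p-value sets a treatment's mean change against its spread between lines. Because the 9 derived lines come from the same knockout, the lines are not fully independent replicates, and the p-values do not allow for that. The AXL transcript itself was down to 92.4 and 79.3 TPM in the UT and E libraries of KO, and was at least 217 TPM in every other library.

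Each library's TPM sums to the same total and keeps no read depth, and fewer cells of a kind and less RNA per cell cannot be told apart. The simple epithelial markers were high in the untreated cells, with KRT7, KRT8, KRT18 and KRT19 each above 960 TPM, EPCAM between 385 and 439 TPM and CDH1 between 60.8 and 92.9 TPM. The markers of lung adenocarcinoma were near 0, with NKX2-1 at 0.354 TPM or less, SFTPB at 1.09 TPM or less and NAPSA at 5.32 TPM or less. PAR stood apart from the derived lines in many genes, so the changes below were also computed without it.

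Many tubulins and keratins share long runs of sequence with relatives and pseudogenes, which bears on how reads were divided among them. An example is TUBA1A and TUBA1B, alpha-tubulin genes that moved in opposite directions with erlotinib, both on chromosome 12. Their coding sequences in GENCODE release 29 are the same at 1318 of 1356 bases (97.2%), with a longest identical run of 221 bases, so some reads can be placed and others cannot. Of the runs of 31 bases in the leading transcript, 48.4% were found in no other gene for TUBA1A and 27.8% for TUBA1B. The share was under 50% for 12 of the 36 genes, at least 90% for 13, and 100% for LMNA, LMNB1, LMNB2 and NES. It was lowest for TUBB3, at 9.37%, since 89.5% of its runs are also in a readthrough gene, AC092143.1. The values below are the authors' division of reads among such genes.

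The 36 genes and the low ones together took up 1.37% to 1.65% of each library's TPM. Keratins made up most of it. Their sum rose with erlotinib, while the sums of tubulins and lamins fell. As means over the 10 lines, the keratin sum went from 8655 TPM in UT to 11198 TPM in E. KRT7 alone went from 3332 to 6139 TPM, so the other keratins together did not rise in the mean. The summed keratin level was 8000 TPM at the lowest, 8722 TPM at the median and 9142 TPM at the highest in UT, and 10604, 11234 and 11744 TPM in E. The summed tubulin level was 5661, 6036 and 6762 TPM in UT, and 2843, 3082 and 3605 TPM in E. The ranges of UT and E did not overlap for either sum. The 3 lamins together ran from 509 to 654 TPM in UT and from 296 to 402 TPM in E.

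Erlotinib against untreated cells was compared in all 10 lines with limma, on log2(TPM + 1), with the line as a block. At an adjusted p of 0.05, 10 of the 36 genes were higher and 20 were lower with E. Of all 14111 genes, 35.5% were higher and 36.3% were lower, so the share of filament genes that rose was below the background and the share that fell was above it. The median log2 change was -0.42 over the 36 genes and 0.01 over all genes. Of the keratins, 8 rose, 6 fell and 4 did not pass the test. Of the tubulins, 2 rose, 9 fell and 2 did not pass, and the 3 lamins, VIM and NES all fell. The genes that did not pass were KRT10, KRT15, KRT34, KRT81, TUBB2B and TUBG2. Without PAR, 11 rose and 21 fell, and of all 14111 genes 10245 were called in either direction.

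**Figure D1:**
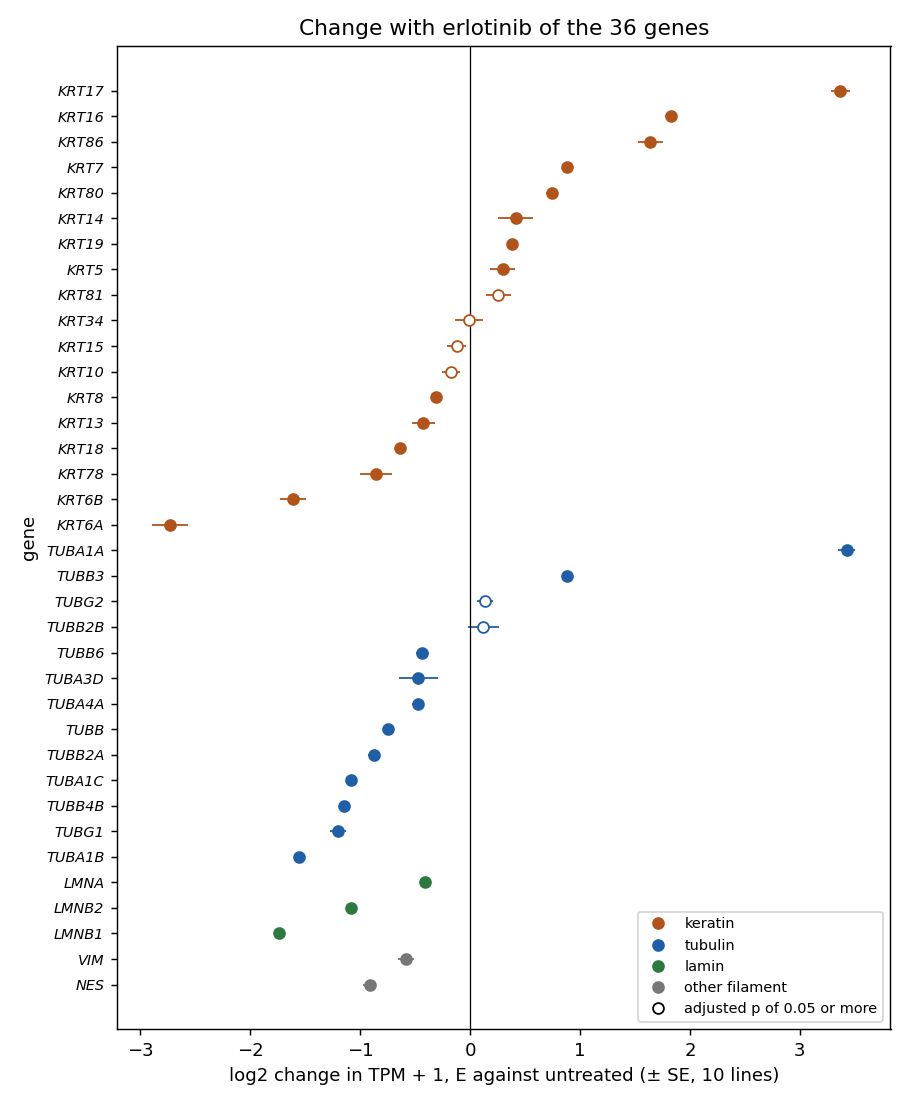
Log2 change in TPM + 1 with erlotinib against untreated cells for the 36 genes (points, mean of 10 lines; bars, standard error from limma), grouped by class. TUBA1A and KRT17 stand farthest to the right at 3.43 and 3.37, and KRT6A farthest to the left at -2.73.

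Among the simple epithelial keratins, KRT7 and KRT19 rose, and KRT8 and KRT18 fell. KRT7, the type II keratin of ducts and the most abundant of the 81 genes, had 3164, 3292 and 3565 TPM (lowest, median, highest line) in UT and 5463, 6197 and 6468 TPM in E. The ranges did not overlap, and every line rose by a similar amount, between 0.76 and 0.98 on the log2 scale. The mean log2 change was 0.88 ± 0.03 (SE, n = 10 lines, limma, adjusted p = 3.6e-12). KRT7 alone was 38.5% of all keratin TPM in UT and 54.9% in E, as means over lines. KRT19, a small type I keratin without a tail domain, had 968, 1187 and 1321 TPM in UT and 1366, 1529 and 1680 TPM in E. It was higher in 10 of 10 lines, with a log2 change of 0.39 ± 0.03 (adjusted p = 1.6e-08).

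KRT8 and KRT18, which pair with each other, both fell. KRT18, the type I partner, had 1918, 1954 and 2151 TPM in UT and 1094, 1300 and 1333 TPM in E, with no overlap and a log2 change of -0.64 ± 0.03 (adjusted p = 1.8e-10). KRT8, the type II partner, had 1588, 1748 and 1952 TPM in UT and 1341, 1403 and 1557 TPM in E, with all E values below the lowest UT value and a smaller log2 change of -0.31 ± 0.03 (adjusted p = 2.7e-07). Both were lower in 10 of 10 lines. The KRT8 to KRT18 ratio was 0.889 ± 0.0457 (SD, n = 10) in UT and 1.12 ± 0.115 in E. The KRT8 and KRT18 genes overlap at their ends on opposite strands of chromosome 12, and how strand was handled is not given in the sources used here. KRT8 and KRT18 also have many pseudogenes, and 43.4% and 39.6% of the runs of their leading transcripts were in no other gene. Summed by type, type II keratins were 1.59 times the type I keratins in UT and 2.32 times in E, as means over lines. In PAR the ratio was 1.56 in UT and 1.68 in E, where the derived lines had 1.47 to 1.65 and 2.26 to 2.52. The type II genes lie on chromosome 12 and the type I genes on chromosome 17, apart from KRT18, which lies beside KRT8 on chromosome 12.

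**Figure D2:**
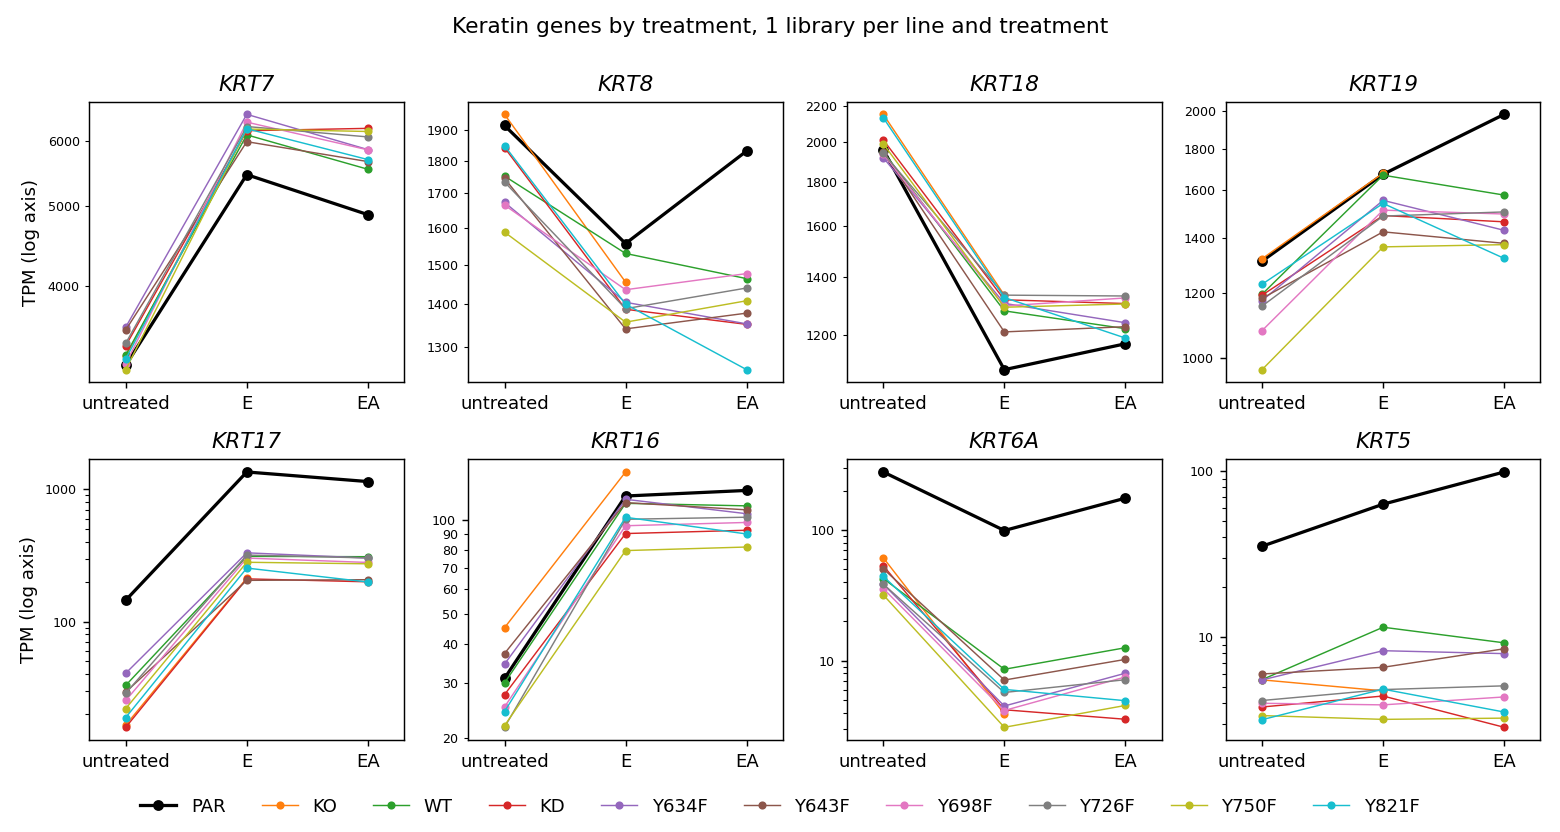
TPM of 8 keratins in each line, by treatment (UT, E, EA), on log axes, with PAR in black and the 9 derived lines in colour and 1 point per library. KRT7 and KRT19 are higher and KRT8 and KRT18 lower with E in every line, and PAR lies far above the other lines for KRT17, KRT6A and KRT5.

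The keratins of stressed epithelium split in the same comparison. KRT17, a type I keratin, had 15.9, 27.1 and 145 TPM in UT and 205, 292 and 1354 TPM in E, with the highest value in PAR both times. Every line rose, and the E value of every line was above the UT value of PAR. The mean went from 37.6 to 378 TPM, 10.1-fold, with a log2 change of 3.37 ± 0.09 (adjusted p = 1.6e-12), and in the derived lines alone it went from 25.6 to 270 TPM. KRT16, another type I keratin of wounded skin, had 21.7, 28.8 and 45.2 TPM in UT and 79.8, 107 and 142 TPM in E, with a log2 change of 1.83 ± 0.05 (adjusted p = 4.5e-12) and no overlap.

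Their usual type II partners went the other way. KRT6A had 31.9, 43.4 and 278 TPM in UT and 3.10, 5.12 and 99.2 TPM in E, and again PAR was highest. The groups overlap only through PAR, whose E value was above the UT value of the 9 derived lines. The log2 change was -2.73 ± 0.16 (adjusted p = 3.7e-09), and it was -2.87 without PAR. KRT6B, a close relative of KRT6A, was low throughout, at 2.62, 3.72 and 4.88 TPM in UT and 0.280, 0.501 and 1.01 TPM in E, with a log2 change of -1.61 ± 0.12 (adjusted p = 3.8e-08). Of the runs of the leading KRT6A and KRT6B transcripts, 47.3% and 41.7% were in no other gene. KRT6A, KRT6B, KRT16 and KRT17 moved in those directions in 10 of 10 lines.

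Of the other keratins, KRT80, a type II epithelial keratin, rose from a mean of 117 ± 8.23 TPM (SD, n = 10) to 197 ± 12.7 TPM, with UT values of 128 TPM or less and E values of 169 TPM or more. Its log2 change was 0.74 ± 0.05 (adjusted p = 7.1e-09). KRT86, a hair keratin, had 1.22, 2.42 and 5.97 TPM in UT and 6.51, 10.5 and 14.5 TPM in E, a log2 change of 1.64 ± 0.11 (adjusted p = 1.6e-08) at levels where the log2(TPM + 1) scale understates the fold. Its leading transcript shares 64.1% of its runs with KRT81, which did not pass the test at 0.25 ± 0.11 (adjusted p = 0.0599) but did without PAR (0.0246) and without Y726F (0.0453). The basal keratins KRT5 and KRT14 passed with small log2 changes of 0.30 and 0.42 and were higher in 7 and 8 of 10 lines. Of the KRT14 TPM, 69.2% was in KRT14-203, a transcript listed as a retained intron without coding bases. For KRT5 the call was lost without PAR (adjusted p = 0.0721), without WT (0.0715), without Y634F (0.0619), without Y821F (0.0599), with no filter (0.0699), after quantile normalization (0.108) and without the replicate block (0.546). For KRT14 it was lost without KO (0.0661), without WT (0.0678), without Y643F (0.0773), without Y821F (0.0636), with no filter (0.0512), after quantile normalization (0.276, where its change was 0.20) and without the replicate block (0.0874). KRT10, which had 3 lines higher and 7 lower, passed without PAR (-0.23, adjusted p = 0.00736). KRT13 fell by 0.43 on the log2 scale in 8 of 10 lines, and that call too was lost without the replicate block (adjusted p = 0.275).

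The abundant alpha-tubulins fell. TUBA1B had 1946, 2076 and 2351 TPM in UT and 607, 706 and 904 TPM in E, a fall of 2.93-fold in the mean with no overlap, and a log2 change of -1.56 ± 0.04 (adjusted p = 8.6e-13). TUBA1C had 1181, 1282 and 1509 TPM in UT and 550, 611 and 685 TPM in E, a log2 change of -1.09 ± 0.04 (adjusted p = 1.7e-11). TUBA4A, an alpha-tubulin known from platelets, had 309, 345 and 425 TPM in UT and 213, 245 and 356 TPM in E, where PAR was highest in both and the ranges overlapped, and its log2 change was -0.48 ± 0.05 (adjusted p = 9.7e-07). All 3 were lower in 10 of 10 lines.

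TUBA1A, the alpha-tubulin of developing neurons, moved the opposite way from a low start. It had 2.95, 8.32 and 15.2 TPM in UT and 43.3, 111 and 135 TPM in E, with PAR lowest in both groups and Y634F highest in both. Every E value was above every UT value, and the mean rose 11.5-fold with a log2 change of 3.43 ± 0.08 (adjusted p = 6.9e-13), the largest rise of the 36 genes. TUBA1A was 0.247% of the summed TPM of TUBA1A, TUBA1B, TUBA1C and TUBA4A in UT and 6.28% in E, so most alpha-tubulin transcripts were still TUBA1B and TUBA1C. TUBA1B, with which it shares 42.4% of its runs, fell in the same libraries.

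The beta-tubulins showed the same split. TUBB, the common beta-tubulin, had 872, 955 and 1068 TPM in UT and 473, 578 and 630 TPM in E, with a log2 change of -0.75 ± 0.03 (adjusted p = 1.9e-11). TUBB4B had 911, 1056 and 1121 TPM in UT and 405, 460 and 573 TPM in E, with a log2 change of -1.14 ± 0.04 (adjusted p = 1.9e-11). TUBB2A fell by 0.88 and TUBB6 by 0.43 on the log2 scale, each in 10 of 10 lines. TUBA3D, a low alpha-tubulin at 0.276 to 4.42 TPM in UT and E, fell by 0.47 and lost its call without KO (adjusted p = 0.0728), without Y634F (0.0646), without Y726F (0.0727) and with no filter (0.0766). Of the TUBA3D TPM, 73.2% was in TUBA3D-202, a transcript without coding bases. TUBB3, the beta-tubulin of neurons that many carcinomas also make, had 83.9, 130 and 140 TPM in UT and 173, 225 and 273 TPM in E, and rose without overlap by 0.88 ± 0.03 (adjusted p = 3e-11). Its share of beta-tubulin TPM went from 5.53% ± 0.602 to 16.9% ± 0.859 (SD, n = 10). The ratio of alpha- to beta-tubulin TPM was 1.67 ± 0.0723 in UT and 1.25 ± 0.0853 in E.

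TUBG1, the gamma-tubulin of the microtubule-nucleating rings, had 74.4, 78.2 and 87.2 TPM in UT and 23.6, 35.5 and 40.7 TPM in E, a log2 change of -1.20 ± 0.07 (adjusted p = 4e-09) with no overlap. Its relative TUBG2 lay between 10.1 and 15.5 TPM in UT and between 11.4 and 16.2 TPM in E and did not pass the test (0.14 ± 0.07, adjusted p = 0.106), although it did without PAR (0.0422).

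**Figure D3:**
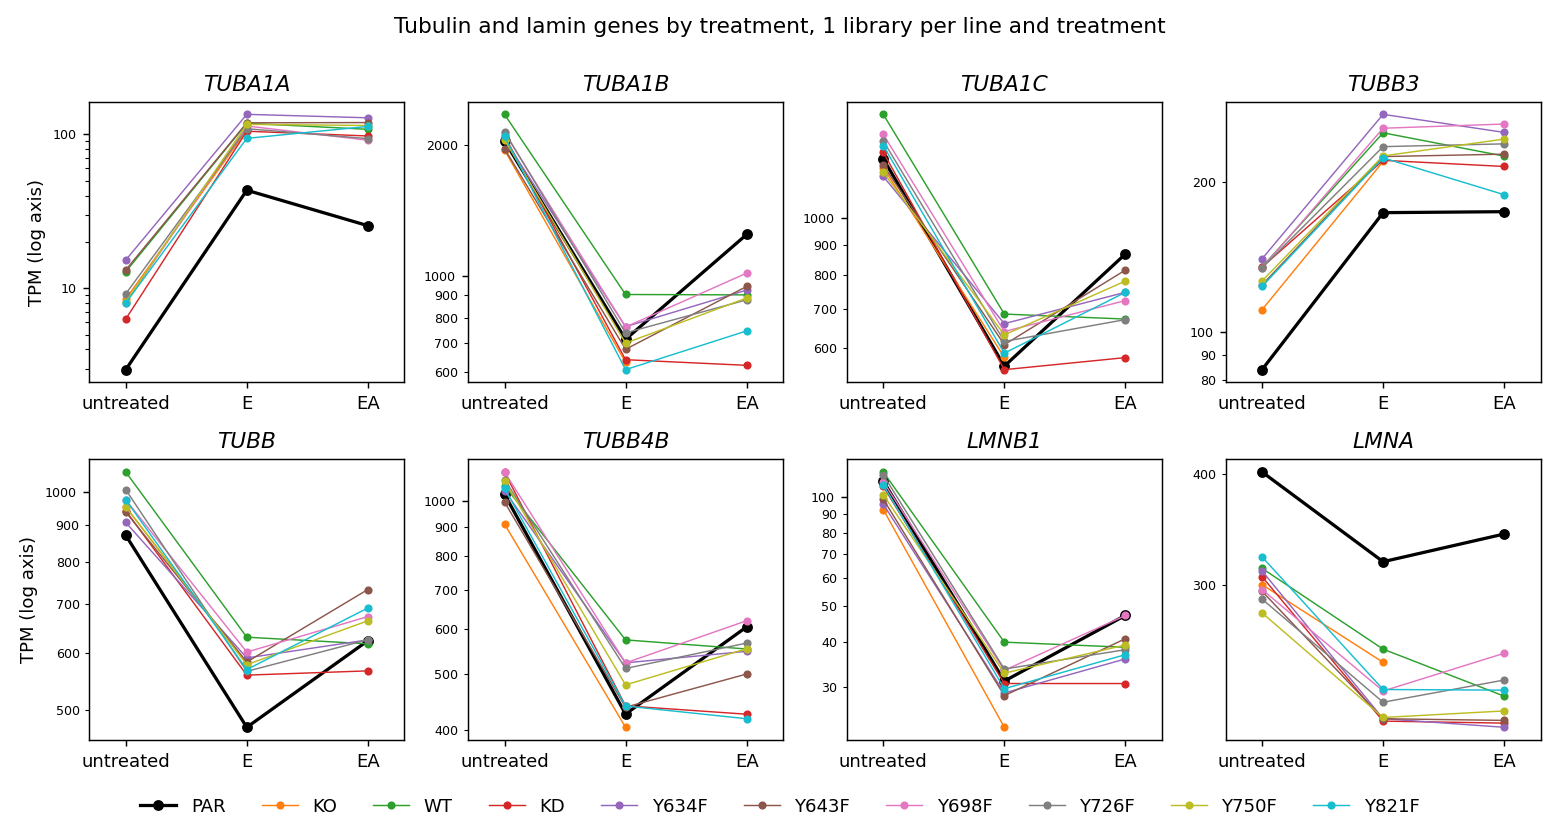
TPM of 6 tubulins and 2 lamins in each line, by treatment, on log axes, with PAR in black and 1 point per library. TUBA1A and TUBB3 are higher with E and the other 6 genes are lower, and for TUBA1A PAR is the lowest line in all 3 treatments.

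The B-type lamins fell more than the A-type lamin. LMNB1 had 92.6, 108 and 118 TPM in UT and 23.2, 30.9 and 39.9 TPM in E, a fall of 3.4-fold in the mean and a log2 change of -1.74 ± 0.04 (adjusted p = 6.9e-13). LMNB2 had 116, 132 and 141 TPM in UT and 52.2, 60.4 and 70.0 TPM in E, with a log2 change of -1.08 ± 0.05 (adjusted p = 3.7e-10). Neither overlapped between UT and E. LMNA, which encodes lamins A and C, had 280, 304 and 402 TPM in UT and 212, 225 and 319 TPM in E, where the overlap comes from PAR, and its log2 change was -0.41 ± 0.03 (adjusted p = 4.2e-08). LMNA was 1.33 ± 0.124 times the sum of LMNB1 and LMNB2 in UT and 2.60 ± 0.519 times in E (SD, n = 10).

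VIM had 17.9, 32.2 and 44.8 TPM in UT and 13.0, 20.7 and 30.5 TPM in E, overlapping ranges in which every line fell (-0.58 ± 0.07, adjusted p = 5e-06). NES, a filament protein of progenitor cells, fell from a mean of 13.2 to 6.53 TPM with no overlap (-0.91 ± 0.06, adjusted p = 9.5e-09). Other mesenchymal markers did not follow VIM. FN1, which encodes fibronectin, had medians of 119 TPM in UT and 308 TPM in E and rose in 10 of 10 lines (1.39 ± 0.05, adjusted p = 2e-11), and of the 4 markers of that list that were tested 3 rose and none fell. TWIST1 had a median of 0 TPM in each treatment. Of the 6 simple epithelial markers 3 rose and 3 fell, of the 3 basal markers KRT5 and KRT14 rose and TP63 fell (-0.42 ± 0.12, adjusted p = 0.00521), and of the lung adenocarcinoma markers only NAPSA was at the tested level (0.50 ± 0.18, adjusted p = 0.0250).

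Genes of cell division moved with these changes. All 10 genes of a proliferation list were lower with E, with a median log2 change of -1.41, and their summed level was between 1338 and 1518 TPM in UT and between 391 and 577 TPM in E. Tubulins and LMNB1 are known to be made at high levels in dividing cells. The part of the lower division genes in the filament changes was not tested.

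The LMNA gene makes lamin A and lamin C from the same start, and the 2 messages part near their ends. The GENCODE release 29 transcripts that define the ends here are LMNA-206 for lamin A, with 1995 coding bases, and LMNA-207 for lamin C, with 1719, and the first 1699 coding bases are the same in both. Within the coding sequence only what lies beyond them tells the ends apart. Transcripts with the lamin C end were 43.7%, 50.8% and 53.9% (lowest, median, highest) of the TPM with either end in UT and 36.8%, 42.9% and 45.2% in E. The share was lower with E in each of the 10 lines, and the mean difference was -7.74 ± 3.54 percentage points (SD of the differences, exact sign-flip test, two-sided, p = 0.00195, the smallest that 10 pairs allow, 0.00391 adjusted over 2 tests). The lamin C end group held LMNA-202, LMNA-203, LMNA-207, and LMNA-216 and LMNA-217, which are not listed as protein-coding. As mean shares of LMNA, LMNA-202 went from 29.6% in UT to 23.6% in E and LMNA-203 from 10.5% to 6.96%. LMNA-207 itself went from 4.62% to 7.05% and was higher in 6 of 10 lines. With EA the share of all transcripts with the lamin C end was 1.82 ± 4.002 points higher than with E in the 8 lines compared (exact sign-flip p = 0.227). LMNA-207 itself was a mean of 4.04% of LMNA with EA. This measure was chosen after the values were seen.

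**Figure D4:**
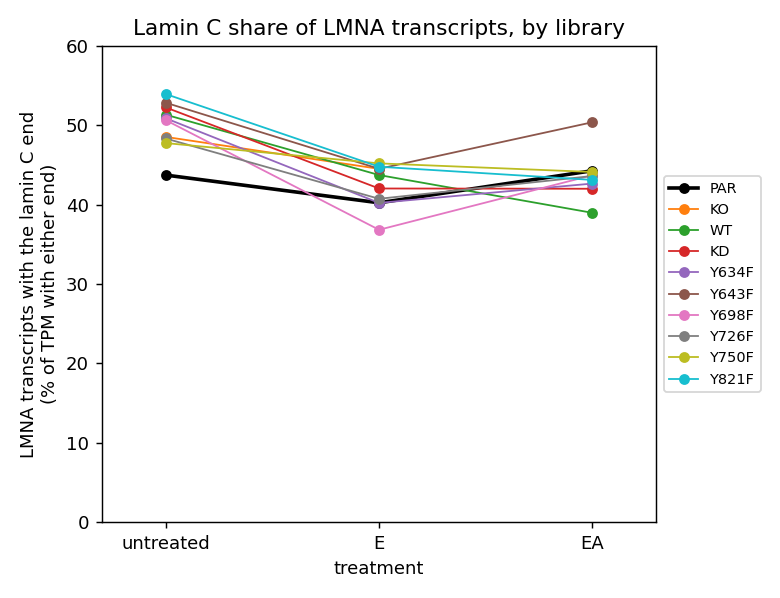
Percent of the LMNA TPM with either end that was in transcripts with the lamin C end, in each library, by treatment, with a line joining the libraries of a cell line and PAR in black. The mean was 50.03% in UT, 42.3% in E and 43.7% in EA.

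In 17 of the 36 genes 1 transcript held at least 90% of the TPM. TUBA1C was the most divided of the abundant genes, with 41.4% in TUBA1C-204, 37.7% in TUBA1C-202 and 20.2% in TUBA1C-203, a transcript listed as a retained intron. KRT80-202 went from 66.8% of KRT80 in UT to 61.1% in E and was lower in 9 of 10 lines. LMNB1-201 was 75.1% of LMNB1 in UT and 84.1% in E and its share was higher in 10 of 10 lines. These shares were given no test.

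The addition of AF154 to erlotinib was compared in the 8 lines with a receptor that is neither deleted nor kinase-dead (PAR, WT and the Y-to-F lines). None of the 36 genes passed the adjusted threshold with limma. An unadjusted p under 0.05 was found for 12 of the 36 and for 2382 of all 14111 genes. At the adjusted threshold, 0.411% of all genes were higher and 0.0638% were lower (58 and 9 genes). The median log2 change was 0.04 over the 36 genes and 0.01 over all genes. The highest-ranked of the 36 were genes that E had lowered, as it had 20 of the 36. Both changes use the same E library of each line. An error in that library moves the 2 changes in opposite directions, so the opposite signs are not independent results. TUBA1B had 607, 706 and 904 TPM in the 10 E libraries and 621, 902 and 1243 TPM in the 9 EA libraries, and in the 8 lines its log2 change was 0.36 ± 0.07 (adjusted p = 0.0572). LMNB1 changed by 0.32 ± 0.07 (adjusted p = 0.0633), TUBA1C by 0.27 ± 0.06 and TUBB by 0.20 ± 0.05 (both adjusted p = 0.0760), KRT6A by 0.46 ± 0.11 (0.0772) and TUBA4A by 0.28 ± 0.07 (0.0973). Each was higher in 7 of 8 lines.

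The lines differed in how far these genes moved with AF154, with no replicate error for a single line. According to the paper, part of the cells in each transduced line still lacked AXL. It also reports lower AXL activation in WT and the Y-to-F lines than in PAR. The part of either in the differences between lines was not tested. PAR had the largest difference for TUBA1B (0.80), TUBA1C (0.64), TUBA4A (0.60), LMNB1 (0.59) and KRT6A (0.82). WT was the line without a higher value for TUBA1B (-0.00), TUBA1C (-0.03), TUBB (-0.03), TUBA4A (-0.15) and LMNB1 (-0.05), and for KRT6A it was Y821F (-0.24). The E library of WT had the highest E value of the 10 lines for TUBA1B (904 TPM), TUBA1C (685 TPM), TUBB (630 TPM) and LMNB1 (39.9 TPM). For TUBA4A the highest E value was in PAR. TUBA1B in WT with EA was 902 TPM, the median of the 9 EA libraries. A difference near 0 in WT is therefore not a low level with EA for TUBA1B. KD, left out of the test, had -0.04 for TUBA1B, 0.07 for TUBA1C, 0.02 for TUBB, 0.14 for TUBA4A, -0.00 for LMNB1 and -0.19 for KRT6A. KRT7 and KRT80, which E had raised, had lower values in 8 of 8 lines without passing (-0.10 ± 0.03, adjusted p = 0.121, and -0.09 ± 0.03, adjusted p = 0.151). Here too the E library of each line is shared with the change from UT. In the same lines 6 of the 10 proliferation genes were higher and all 10 had a log2 change above 0, with a mean change per line of 0.64 in PAR, 0.20 in WT, 0.04 in KD and 0.25 to 0.41 in the others. The part of these genes in the tubulin and lamin differences was not tested.

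**Figure D5:**
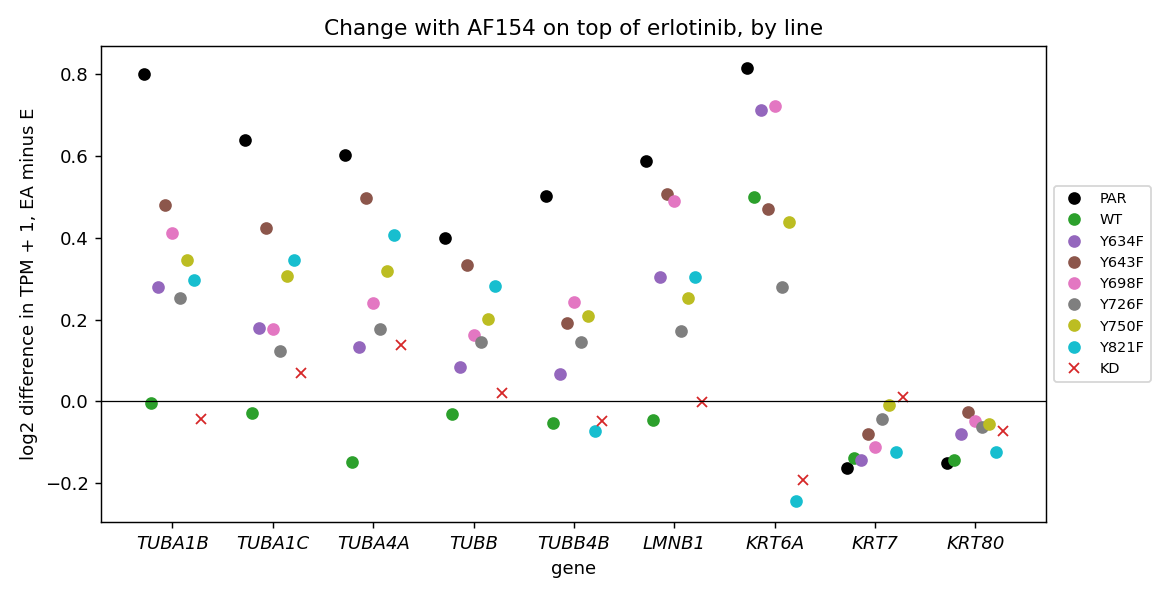
Log2 difference in TPM + 1 between EA and E in each line for 9 filament genes, with KD, which was not in the test, as a cross and 0 as a line. For TUBA1B PAR is highest at 0.80 and WT and KD lie near 0, and KRT7 is below 0 in each of the 8 lines tested.

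These calls changed with the filter on low values, with the scaling and without WT. With a filter of at least 10 TPM, or with TPM rescaled to nuclear protein-coding genes, 5 of the members passed (KRT6A, LMNB1, TUBA1B, TUBA1C and TUBB, all higher), and without WT 2 did (TUBA1B and LMNB1, both adjusted p = 0.0483).

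PAR was compared with the 9 derived lines in 2 ways. The first took genes whose PAR value lay outside the range of the derived lines in all 3 treatments. Of the 36 genes, 7 lay above (KRT5, KRT6A, KRT17, LMNA, NES, TUBA4A and TUBB2A) and 2 below (TUBA1A and TUBB3), where 7.2% of all genes lay above and 9.81% below. PAR is 1 line, so these are values with no test. When each of the 8 transduced lines was set against all other lines, PAR included, between 0 and 2 members lay outside. Of all 14111 genes, 3 to 189 lay above and 4 to 53 below. Where PAR is the extreme, no other line can be outermost on that side, so these counts are not a like comparison with those of PAR.

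The share of TPM in mitochondrial genes was also highest in PAR in UT and E, at 14.4% and 17.4%, against 11.4% to 14.2% and 12.3% to 14.2% in the derived lines, and with EA it was 16.4% in PAR and 12.9% to 17.4% in the derived lines, highest in Y821F. With TPM rescaled to nuclear protein-coding genes, 11 of the 36 genes lay outside, 9 above and 2 below. The shares over all genes given above are for TPM that was not rescaled, so they are no background for this count.

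KRT17, KRT6A and KRT5 were far higher in PAR. KRT17 was 145, 1354 and 1146 TPM in PAR with UT, E and EA, against 15.9 to 40.8, 205 to 331 and 199 to 310 TPM in the derived lines. KRT6A was 278, 99.2 and 175 TPM in PAR, against 31.9 to 61.4, 3.10 to 8.61 and 3.57 to 12.6 TPM. KRT5 was 35.3, 63.3 and 99.0 TPM in PAR, against 3.19 to 6.01, 3.20 to 11.5 and 2.87 to 9.25 TPM. TP63, the transcription factor that marks basal cells, was also highest in PAR, at 6.59, 3.44 and 5.94 TPM, where the medians over all lines were 1.51, 0.963 and 1.25 TPM. KRT14, the basal partner of KRT5, was not, at 0.479 TPM or less in PAR. KRT7, KRT8, KRT18 and KRT19 together were 91.8% of keratin TPM in PAR and 95.4% to 96.5% in the derived lines in UT, and 83.4% and 93.3% to 94.5% in E.

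LMNA was 402, 319 and 342 TPM in PAR, against 280 to 323, 212 to 255 and 208 to 252 TPM in the derived lines. The 2 tubulins that E raised were lowest in PAR. TUBA1A was 2.95, 43.3 and 25.5 TPM there, against 6.30 to 15.2, 94.2 to 135 and 91.6 to 128 TPM, and TUBB3 was 83.9, 173 and 174 TPM, against 111 to 140, 220 to 273 and 188 to 261 TPM. TUBA4A was 425, 356 and 541 TPM in PAR, against 309 to 417, 213 to 305 and 234 to 396 TPM.

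The second comparison was of the erlotinib change itself. With limma, 1 of the 36 genes had a change in PAR that differed from the derived lines, where 2.57% of all genes did. KRT86 rose by 0.63 in PAR and by 1.75 in the derived lines (range 1.55 to 2.01), a difference of -1.12 ± 0.15 (adjusted p = 0.0101), and PAR is 1 library per treatment assumed to vary as the derived lines do. For KRT17 the changes were 3.21 and 3.38, a difference of -0.17 ± 0.32 (adjusted p = 0.804), and for TUBA1A they were 3.49 and 3.42 (0.07 ± 0.28, adjusted p = 0.922). For KRT6A they were -1.48 and -2.87, a difference of 1.39 ± 0.42 that did not pass (adjusted p = 0.107). The median difference over all genes was -0.15.

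Genes that work with these filaments changed with E in both directions, where 35.5% of all genes were higher and 36.3% were lower. Of 13 genes that link filaments to junctions or to each other, 8 rose and 3 fell, led by JUP, the plakoglobin of desmosomes (1.01 ± 0.04, adjusted p = 4.9e-11), and FAM83H, a keratin-binding scaffold, which fell in 9 of 10 lines (-2.39 ± 0.40, adjusted p = 0.000104). Of 14 partners of the nuclear lamina, 2 rose and 6 fell, with SUN2, which ties the lamina to the cytoskeleton, at 0.48 ± 0.04 and LBR, the lamin B receptor, at -1.50 ± 0.04. Of 12 partners of the gamma-tubulin ring complex, 2 rose and 9 fell with a median of -0.55, with the scaffold AKAP9 at 0.45 ± 0.08 and the ring subunit TUBGCP3 at -1.19 ± 0.06. Of 17 genes for tubulin folding and modification, 6 rose and 6 fell, with SVBP, the partner of the enzymes that remove tubulin's last tyrosine, at 0.68 ± 0.06 and TTLL12, of the tubulin tyrosine ligase-like family, at -1.47 ± 0.04. Of 12 microtubule-binding proteins, 4 rose and 7 fell, with MAP4, which stabilises microtubules, at 0.61 ± 0.04 and STMN3, of the stathmin family that binds free tubulin, at -1.57 ± 0.04. Of 7 further filament and tubulin genes at the tested level, 1 rose and 4 fell, with BFSP1, a filament protein of the lens, at 0.63 ± 0.12 and NEFH, a neurofilament subunit, at -1.24 ± 0.06. With AF154, where 0.411% of all genes were higher, 1 gene of these lists passed, the lamina partner TMPO (0.28 ± 0.04, adjusted p = 0.0219, higher in 8 of 8 lines).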

How the data were processed

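RNA of 10 PC9 lines (polyA selection, NovaSeq) was measured in 29 libraries. The authors deposited TPM per transcript. The submitters' processing notes name kallisto and GRCh38, and a version or annotation release is not given in the sources used here. Of 188753 transcripts, 169797 matched GENCODE release 29 by identifier and were summed to 35579 genes, which held 97.0% to 97.4% of a library's TPM. The 18956 others were not used. TPM keeps no depth, so counting error is unknown, and errors are from the spread over lines.

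Values were log2(TPM + 1), which understates the changes of low genes, over the 14111 genes whose mean reached 1 TPM. limma 3.58.1 in R 4.3.3 (lmFit, eBayes with trend, line as block) compared E with UT in 10 lines and EA with E in 8, and E minus UT of PAR with that of 9 derived lines without trend. Benjamini-Hochberg adjustment was over all genes, at 0.05. Tables used pandas 2.3.3, numpy 2.4.6 and scipy 1.17.1. The lines pair libraries because UT, E and EA are the same cells of a line. Same-line deviations of UT with E correlated at 0.45 in PAR and at -0.01 to 0.17 in the derived lines. Those of E with EA correlated at 0.58 in PAR and at 0.03 to 0.15 in the other lines compared.

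The genes, the lists (filament linkers, nuclear lamina partners, tubulin folding and modification, gamma-tubulin ring complex partners, microtubule binding proteins, other filament and tubulin genes, proliferation, and markers of simple epithelium, lung adenocarcinoma, basal and mesenchymal cells) and the tests were chosen with earlier results of these data known. Genes named were KRT7, KRT8, KRT18, KRT19, VIM, NES, the lamins, the 3 further keratins and 5 tubulins highest in TPM, the 6 largest rises and 6 largest falls with E that were the same way in all lines, those PAR held outside the derived range at 5 TPM or more, and in each list the largest change each way. KRT10, KRT13, KRT14, KRT15, KRT34, KRT81, TUBA3D, TUBB2B, TUBB6 and TUBG2, AC092143.1 and the marker genes were named beside them after their values were seen. Alternatives were other filters, pseudocounts, scalings, no block, KD included and each line left out. The fits were tested on simulated data. Some sequences are not reported here.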

Additional observations from a re-analysis of the deposited data

Results flagged for a closer look

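In 125 groups of named-gene values, 27 held 1 library or line far from the others by Dixon's test, which chance alone trips in about 5% of groups, and 25 of these were PAR. Some of the named genes were chosen because PAR lay outside the derived range, so the count for PAR is a description and is not to be set against that rate. In UT, PAR was apart for KRT17 (145 TPM, others 15.9 to 40.8), KRT6A (278 TPM, others 31.9 to 61.4), KRT5 (35.3 TPM, others 3.19 to 6.01), LMNA (402 TPM, others 280 to 323) and TUBB3 (83.9 TPM, others 111 to 140). In E it was apart for KRT17 (1354 TPM), KRT6A (99.2 TPM), KRT5 (63.3 TPM) and LMNA (319 TPM), all high, and for KRT7 (5463 TPM, others 5991 to 6468), KRT18 (1094 TPM, others 1209 to 1333), KRT80 (169 TPM, others 189 to 213), TUBB (473 TPM, others 558 to 630), TUBB3 (173 TPM) and TUBA1A (43.3 TPM, others 94.2 to 135), all low. In EA it was apart for KRT17 (1146 TPM), KRT6A (175 TPM), KRT5 (99.0 TPM), LMNA (342 TPM), KRT8 (1831 TPM, others 1249 to 1477) and KRT19 (1981 TPM, others 1322 to 1579), all high, and for KRT7 (4884 TPM, others 5546 to 6219) and TUBA1A (25.5 TPM, others 91.6 to 128), both low.

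The erlotinib change of PAR was apart from the other lines for KRT18 (-0.84, others -0.69 to -0.54) and for KRT86 (0.63, others 1.55 to 2.01). For KRT86 limma's difference between PAR and the derived lines was -1.12 (adjusted p = 0.0101), from the same 10 values and with 1 line on the PAR side. Outside PAR, WT was apart for TUBA1B in UT (2351 TPM, others 1946 to 2144) and for KRT6B in EA (0.868 TPM, others 0.433 to 0.598).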

How the results depend on the processing

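Of the 36 genes, 30 were called between E and UT. The count was 27 with no replicate block, 27 with no filter, 28 after quantile normalization, 31 rescaled to nuclear protein-coding genes, 32 with libraries centred on their median, and 24 of 27 tested with a filter of 10 TPM. Leaving out each line in turn gave 28 to 32 (8 to 11 higher, 19 to 21 lower). Over all genes, 10125 of 14111 were called between E and UT. With no replicate block it was 9650, after quantile normalization 10122, with libraries centred 10206, and with a line left out 9832 to 10245. It was 10759 of 26628 with no filter, 9740 of 13039 rescaled and 7175 of 9085 with the 10 TPM filter. Between EA and E, where 0 members were called, 5 were called with a filter of 10 TPM and 5 with TPM rescaled to nuclear protein-coding genes, and leaving out a line gave 0 to 2. Over all genes that comparison called 67 of 14111 genes, and 214 of 9085 with the 10 TPM filter, 214 of 13039 rescaled and 6 of 26628 with no filter. Of the 14111 it called 32 with libraries centred on their median, 3 with no replicate block, 27 with KD included and 0 to 38 with a line left out. For the difference in erlotinib change between PAR and the derived lines, 1 member was called and 0 with the 10 TPM filter, where KRT86 was not tested. Over all genes it called 362, and 1275 with no filter, 107 centred, 96 after quantile normalization and 206 to 402 with a derived line left out. Of those 362 genes, 332 were lower and 30 higher, and centring moved the median difference over all genes from -0.15 to 0.06, and quantile normalization to 0.02. PAR lay outside the derived range for 9 members in all 3 treatments, for 17 in UT alone (11 above, 6 below, where 29.3% of all genes lay above and 21% below), and for 9 to 12 with a derived line left out (7 to 10 above, 2 to 3 below). The change in the lamin C share was -8.32 to -7.07 points with a line left out. No call between E and UT, between EA and E or between PAR and the derived lines changed sign for a member under these alternatives. Fewer genes were tested with the stricter filter. The cause of these changes was not tested.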
